A study of Mus musculus with 8 samples.

Results

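The genes described here encode subunits of the mitochondrial respiratory chain and ATP synthase. They were taken by symbol: complex I (Nduf), complex II (Sdha to Sdhd), complex III (Uqcr and mt-Cytb), complex IV (Cox and mt-Co) and complex V (Atp5 and mt-Atp), with pseudogene symbols ending in -ps left out. The rule found 97 of the 41128 gene symbols in the deposited table, 84 encoded in the nucleus and 13 on the mitochondrial genome (mt- genes). The nuclear genes fell into 37 of complex I, 4 of complex II, 8 of complex III, 18 of complex IV and 17 of complex V. The mt- genes fell into 7 of complex I, 1 of complex III, 3 of complex IV and 2 of complex V.

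Polyadenylated RNA was sequenced from whole-tissue sections of distal ileum, close to the ileocecal valve, of 4 Cftr null mice (KO; Cftrtm1Cam, congenic on FVB) and 4 FVB littermates labelled Cftr N/N (WT), with 1 library per mouse. The mice formed 4 sex-matched littermate couples: couples 1 and 3 female and couple 2 male, all untreated, and a further female couple whose drinking water held 2 antibiotics, metronidazole at 0.5 g/L with ciprofloxacin at 0.3 g/L. All mice were reared on a low-fiber diet with an osmotic laxative that was withdrawn before sampling. The age of the mice is not given in the sources used here, and the antibiotic treatment coincided with a single couple, so treatment, litter and that couple's own normalization cannot be told apart.

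The respiratory chain passes electrons from NADH (complex I) and succinate (complex II) through ubiquinone to complex III, then through cytochrome c to complex IV, which reduces oxygen. Complexes I, III and IV pump protons across the inner mitochondrial membrane, and ATP synthase (complex V) uses the gradient to make ATP. Complex II is encoded wholly in the nucleus, whereas the other complexes mix nuclear subunits with core subunits made from mitochondrial DNA, so that their assembly draws on both genomes. In the ileal epithelium, oxidative phosphorylation supplies ATP for ion and nutrient transport in villus cells.

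The values are the authors' RPKM-like values, scaled by gene length and library, with read depth unknown. Each library's values summed to between 346794 and 397082. Sorted by size, the 4 libraries from couples 1 and 2 hold the same numbers, so there a value carries the rank of a gene and little else. Within couple 3, and within the antibiotic couple, both libraries also had the same highest value (18690 and 11280). Other high values recurred there in a different gene of the littermate, so they too mainly carry a rank. Cftr was lower in every KO mouse, with WT and KO values of 12.4 against 3.74, 9.94 against 2.65, 10.1 against 3.17 and, in the antibiotic couple, 13.8 against 4.94. Enterocyte markers were present in all libraries, and their summed level was 2.06e+04 to 2.83e+04 in untreated WT and 8.62e+03 to 1.62e+04 in untreated KO ileum. All 9 enterocyte markers passed the filter used below, 8 of them had a fitted difference below 0, and the list's median was -0.60 on the log2 scale. The markers ranged widely, from -2.28 for Fabp6 to 1.05 for Slc10a2, with Cdh1 at -0.0021 and Epcam at -0.20. T and NK cell markers were higher in KO (median 1.13, 5 of 5 above 0). In bulk tissue such as this, fewer cells of a type and less RNA per cell cannot be told apart, and the part of these shifts in the results below was not tested.

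In the untreated couples, the nuclear genes of the respiratory chain lay slightly higher in KO than in WT ileum, and no single gene passed the test without the couple term. Differences are given as log2 KO over WT of value + 1, a scale that understates the change of low genes. Of the 84 nuclear genes, 78 passed the filter, a value no lower than 1 in 3 or more of the 6 untreated libraries. Of these 78, 71 had a fitted difference above 0, with a median of 0.18 and a range of -0.24 to 0.74. Over all 11717 genes tested, 5665 (48.3%) lay above 0, with a median of -0.01.

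Called genes were few at either setting of the fit. By limma with Benjamini-Hochberg adjustment, 0 of the 78 nuclear genes had an adjusted p under 0.05, where 2.16% of all tested genes were called, 1.15% higher and 1.01% lower. At an unadjusted p under 0.05 the limma count was also 0 of 78, against 16.0% of all tested genes. With the littermate couple as a block, 1 nuclear gene (Ndufs5) was called higher and 0 lower, a share of 1.28% against 8.4% of all tested genes called higher and 9.91% called lower. In the blocked limma fit 22 of the 78 (28.2%), Ndufs5 among them, had an unadjusted p under 0.05, a smaller share than the 38.9% of all tested genes. The median standard error of the fitted difference was 0.25 without the block and 0.10 with it. The blocked 95% interval lay within a 1.5-fold change either way for 62 of the 78 genes, and within 2-fold for 76.

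The 3 couples differed in size. The median nuclear differences of couples 1, 2 and 3 were 0.06, 0.35 and 0.19, beside all-gene medians of -0.02, 0.00 and -0.03. KO exceeded WT for 54, 73 and 59 of the 78 genes, where 47.5%, 50.3% and 45.8% of all tested genes did so. KO exceeded WT in all 3 couples for 46 of the 78 (59.0%), against 28.1% of all tested genes. Only 4 (Sdha, Cox6b2, Cox7a1 and Atp5sl) were lower in KO in all 3 couples, against 32.5% of all tested genes. In 3 genes (Atp5j2, Cox6c and Cox7b) all KO values lay above all WT values, and in 0 below, against 10.4% and 12.1% of all tested genes. The count above 0 rested in part on couple 2: it was 48 of 78 without the WT library of couple 2, 57 without its KO library and 60 without the couple, with medians of 0.06, 0.16 and 0.11. Without the KO library of couple 3, 58 of 78 lay above 0, with a median of 0.07.

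**Figure D1:**
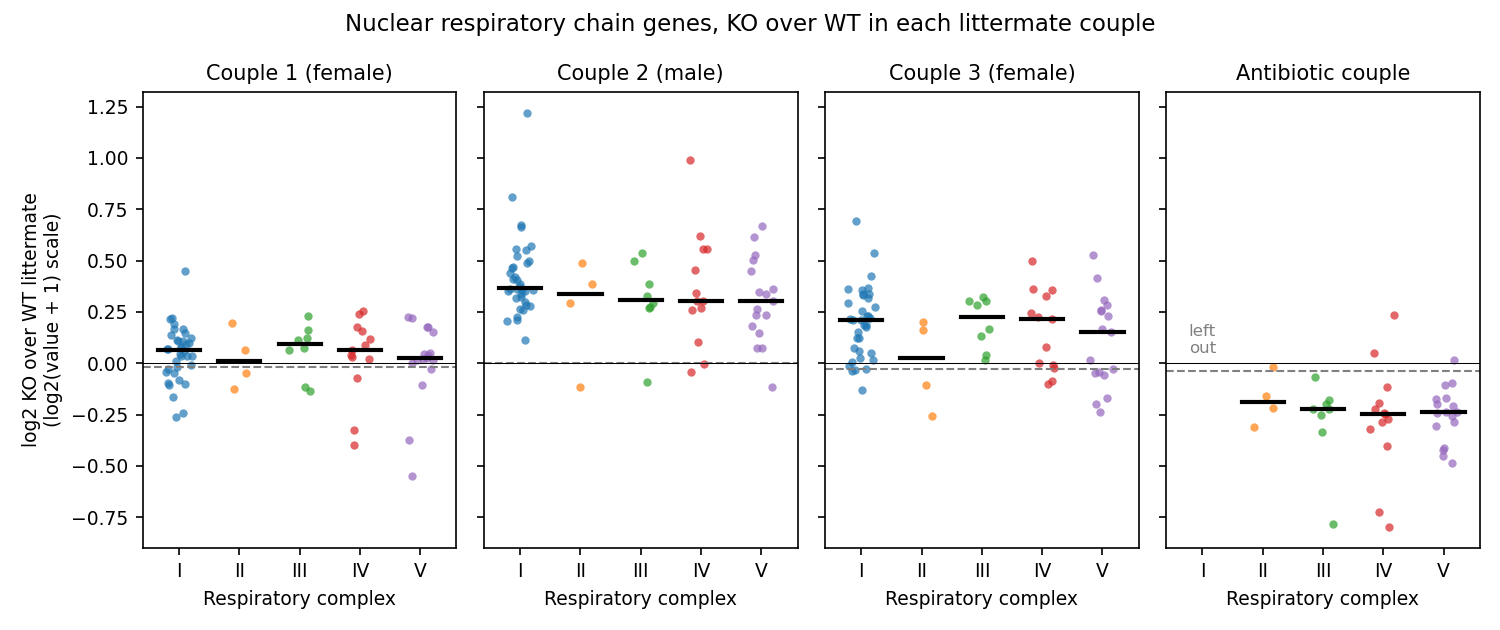
Log2 KO over WT littermate (log2(value + 1) scale, y axis) for each tested nuclear respiratory chain gene, by complex (x axis), in couples 1, 2 and 3 and the antibiotic couple; points are genes, black bars the median of a complex and the dashed line the median of all tested genes. The bars of all 5 complexes sit above 0 in each untreated couple, highest in couple 2, and those of complexes II to V sit below 0 in the antibiotic couple, where complex I was left out.

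Gene length moved with this difference. All tested genes were ranked by exon length into 5 groups of equal size. Exon length was that of all annotated exons of a symbol merged, which can exceed the length of its main transcript. In the untreated fit the all-gene median was 0.14 in the group with the shortest exons (up to 2228 bp, 64.1% above 0) and -0.12 in the group with the longest (32.0% above 0). The shortest group held 53 of the 78 nuclear genes, with a median of 0.19, and all 13 mt- genes. In the next groups the nuclear genes had medians of 0.18 (14 genes), 0.17 (8 genes), 0.27 (2 genes) and 0.10 (1 gene), against all-gene medians of 0.04, -0.02, -0.05 and -0.12. The 2 genes at 0.27 were Atp5l and Ndufb2, with merged exons of 6443 and 5628 bp. A group of long merged exons therefore need not hold long transcripts, and the trend removal below used the same lengths. With the trend on exon length removed from each library, 50 of the 78 nuclear genes lay above 0, and their median was 0.06. Of the genes described below, the difference became 0.47 for Ndufs5, 0.23 for Ndufa4, 0.11 for Sdhd, 0.34 for Cox7c, 0.23 for Cox7b and -0.34 for Cox6b2.

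Complex I genes lay above 0 throughout. All 36 that passed the filter had a fitted difference above 0, with a median of 0.20, and couple medians of 0.06, 0.37 and 0.21. With the exon length trend removed, 26 of the 36 lay above 0, with a median of 0.08. In couple 2 KO exceeded WT for 36 of 36 genes, and in couples 1 and 3 for 24 and 31. Ndufs5, an accessory subunit of the complex I membrane arm (chromosome 4, 123712710 to 123718202, minus strand, GRCm38), had the largest difference of all nuclear genes. Its values were 14.1, 5.14 and 12.2 in the WT mice of couples 1, 2 and 3, and 19.6, 13.3 and 18.2 in their KO littermates. Each KO mouse exceeded its littermate, and the groups overlapped only through the KO value of couple 2, which lay below the WT value of couple 1. The fitted difference was 0.74 (SE 0.34 without and 0.17 with the block), with a limma adjusted p of 0.354 without and 0.0499 with the block. The blocked call was lost on leaving out any couple, with limma adjusted p of 0.0794, 0.0825 and 0.0961 without couples 1, 2 and 3. Without couple 2 the difference was 0.49, and without its WT library alone 0.34.

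Ndufa4, which carries a complex I symbol and is now counted as a subunit of complex IV, had the highest level of the Nduf genes. Its values were 258, 171 and 303 in the WT mice and 299.8, 252 and 378 in the KO mice. Each KO value exceeded the littermate's, with overlapping groups, and the fitted difference was 0.36 (SE 0.29; limma adjusted p 0.608, and 0.0712 with the block). The smallest fitted difference of complex I was that of Ndufb3, an accessory subunit, at 0.0028. Core subunits of the electron-input arm lay in the same range. Ndufs1, Ndufs3, Ndufs7, Ndufs8, Ndufv1 and Ndufv2, which hold the flavin and iron-sulfur centres or frame them, had differences of 0.10, 0.16, 0.18, 0.32, 0.11 and 0.34.

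The 4 genes of complex II, succinate dehydrogenase, split by subunit. The median was 0.14, with 3 of 4 above 0, and couple medians of 0.01, 0.34 and 0.03. Sdhd, a membrane anchor, had values of 141, 75.2 and 186 in WT and 162, 98.6 and 214 in KO. KO was higher in each couple, the 2 groups overlapped, and the fitted difference was 0.26 (SE 0.41; limma adjusted p 0.815, and 0.0908 with the block). Sdha, the flavoprotein that oxidizes succinate, had values of 90.8, 81.5 and 97.7 in WT and 83.2, 75.0 and 81.5 in KO. It was lower in KO in each couple, with overlapping groups and a fitted difference of -0.17 (SE 0.18; limma adjusted p 0.708, and 0.180 with the block). Sdhb, the iron-sulfur subunit, and Sdhc, the other anchor, had differences of 0.05 and 0.24.

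All 8 nuclear genes of complex III, the ubiquinol to cytochrome c oxidoreductase, had a fitted difference above 0, with a median of 0.18 and couple medians of 0.09, 0.31 and 0.22. Uqcrc1, a core protein and the highest of these genes, had values of 146, 215 and 224 in WT and 163, 260.0 and 226 in KO. The KO mouse had more in each couple, least so in couple 3, and the fitted difference was 0.15 (SE 0.28; limma adjusted p 0.847, and 0.272 with the block). Uqcr10, a small subunit, had values of 107, 143 and 142 in WT and 126, 208 and 176 in KO. KO was higher in each couple, and the groups overlapped through the KO value of couple 1. The fitted difference was 0.36 (SE 0.25; limma adjusted p 0.551, and 0.0628 with the block), and it was -0.06 with the exon length trend removed. Uqcrfs1, the Rieske iron-sulfur protein, had a difference of 0.21.

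Of the 18 nuclear genes of complex IV, cytochrome c oxidase, 13 passed the filter, and 11 of these lay above 0. Their median was 0.19, with couple medians of 0.06, 0.31 and 0.22. Cox6a1, the highest of them, had values of 283, 403 and 454 in WT and 291, 498 and 454 in KO. The littermates of couple 3 were equal, the fitted difference was 0.11 (SE 0.31; limma adjusted p 0.905, and 0.452 with the block), and it was -0.23 with the exon length trend removed. Cox7c, a small subunit, had values of 8.03, 9.97 and 7.24 in WT and 8.44, 20.8 and 10.6 in KO. KO was higher in each couple, mainly in couple 2, and the fitted difference was 0.52 (SE 0.31; limma adjusted p 0.469, and 0.116 with the block). Cox7b, a small subunit encoded on the X chromosome, had values of 109, 98.7 and 116 in WT and 131, 146 and 149.5 in KO. All 3 KO values lay above all 3 WT values, and the fitted difference was 0.39 (SE 0.19; limma adjusted p 0.361, and 0.0511 with the block). Cox7a2l, which helps join complexes III and IV into supercomplexes, had a difference of 0.0019.

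The 17 genes of complex V, ATP synthase, had a median of 0.14, with 13 above 0 and couple medians of 0.03, 0.30 and 0.15. Atp5a1, the alpha subunit of the catalytic head, had values of 336, 354 and 417 in WT and 379, 373 and 354 in KO. KO was higher in couples 1 and 2 and lower in couple 3, and the fitted difference was 0.0045 (SE 0.22; limma adjusted p 0.996). Atp5b, the catalytic beta subunit, was at -0.01. Atp5j2, a subunit of the membrane part, had values of 94.6, 84.2 and 85.9 in WT and 107, 134 and 103 in KO. All 3 KO values lay above all 3 WT values, and the fitted difference was 0.37 (SE 0.19; limma adjusted p 0.411, and 0.0981 with the block). Atp5sl is listed by its older symbol and is now Dmac2, a complex I assembly factor and not a subunit of ATP synthase. Its values were 10.4, 10.5 and 8.11 in WT and 6.82, 9.62 and 7.77 in KO, lower in KO in each couple, and its fitted difference of -0.24 (SE 0.18; limma adjusted p 0.576, and 0.217 with the block) was the lowest of the nuclear genes.

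Complex IV has isoform genes whose second copy is used mainly in heart and skeletal muscle, lung or testis. Cox7b2 and Cox8c, both testis isoforms, were listed at 0 in all 8 libraries, and Cox6a2, a striated muscle isoform, did not exceed 0.54 in any. Cox7a1, known from heart and skeletal muscle, was the only one of these with a level near that of its partner. Its values were 64.2, 49.4 and 71.2 in WT and 51.0, 48.0 and 66.9 in KO, lower in KO in each couple (fitted difference -0.15, SE 0.22; limma adjusted p 0.796, and 0.271 with the block), and its difference was -0.60 with the exon length trend removed. Its partner Cox7a2 had values of 134, 78.6 and 117 in WT and 149, 121 and 150.2 in KO, higher in KO in each couple (fitted difference 0.38, SE 0.25; limma adjusted p 0.525, and 0.0803 with the block), and its difference was 0.16 with that trend removed. As a percent of the pair's summed value, Cox7a1 made up 32.4, 38.6 and 37.8 in WT and 25.5, 28.3 and 30.8 in KO, and 36.5 against 29.6 in the antibiotic couple. The WT shares all lay above the KO shares.

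The other second copies were low. Cox6b2, the testis isoform of Cox6b1, had values of 5.11, 10.1 and 6.02 in WT and 3.64, 10.1 and 5.54 in KO (fitted difference -0.17, SE 0.35; limma adjusted p 0.872, and 0.297 with the block). Its share of the pair in the WT mice was 1.80, 3.24 and 1.82%, and in the KO mice 1.21, 2.57 and 1.44%, lower in KO in each couple, with overlapping groups. Cox4i2, a lung isoform that responds to low oxygen, was under the filter, with values of 0.66, 0.46 and 1.03 in WT and 0.27, 0.26 and 0.41 in KO. It made up 0.424, 0.226 and 0.401% of its pair with Cox4i1 in WT and 0.175, 0.106 and 0.137% in KO, and the groups did not overlap. Cox8b, a muscle and brown fat isoform, was at 0.67, 0.64 and 1.12 in WT and 0.34, 0.22 and 0.89 in KO, a share of its pair with Cox8a of 0.198, 0.180 and 0.272% against 0.0989, 0.0525 and 0.216%. Ndufa4l2, the hypoxia-induced relative of Ndufa4, was at 0.50, 1.35 and 1.03 in WT and 0.57, 0.60 and 0.57 in KO.

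These shares were noticed in the data and carry no test, and values of low genes are uncertain where depth is unknown. Of all tested genes taken singly, 12.1% had all KO values below all WT values, and no such background was taken for shares of pairs. The partners Cox7a2, Cox6b1, Cox4i1 and Cox8a had fitted differences of 0.38, 0.22, 0.17 and 0.09, so a share also holds its partner's shift. Among markers of other tissues, Ucp1 and Cidea of brown fat stayed under 1 in all libraries, as did 4 of the 5 markers of striated muscle and heart (Myh7, Myl2, Actn2 and Tnnt3). The other, Ckm, the muscle creatine kinase, was at 3.60, 6.98 and 6.07 in the WT mice, and 2.42, 4.11 and 4.11 in the KO mice, and at 9.40 against 4.70 in the antibiotic couple. Ckm was lower in KO in all 4 couples, as Cox7a1 was, and was called lower with the block (-0.51, limma adjusted p 0.0285, and 0.392 without). The other striated muscle markers did not go that way. Myh7, Actn2 and Tnnt3 were higher in KO in couples 1 and 2, though no higher than 0.44, and at 0 in the other couples. Myl2 was at 0 throughout. The 6 smooth muscle markers had a summed level of 453 to 710 in WT and 379 to 639 in KO, with couple medians of 0.67, -0.81 and 0.07 and a median of -0.34 in the antibiotic couple. The part of muscle content in the isoform shares was not tested.

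**Figure D2:**
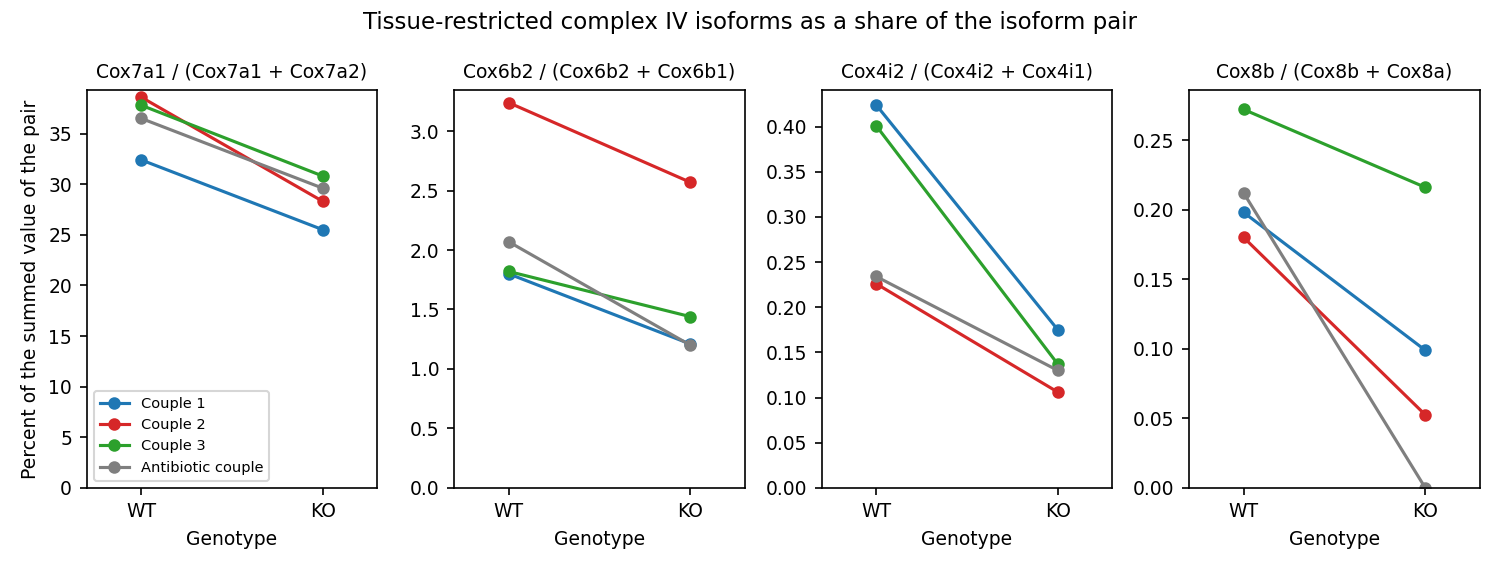
Share of the restricted isoform in the summed value of its pair (percent, y axis; each axis starts at 0) for Cox7a1, Cox6b2, Cox4i2 and Cox8b in WT and KO (x axis); lines join littermates of couples 1, 2 and 3 and the antibiotic couple. The share was lower in the KO littermate in all 4 couples for all 4 genes drawn. For Cox7a1 the WT points lie at 32.4 to 38.6% and the KO points at 25.5 to 30.8%. Of the pairs not drawn, Cox6a2 was higher in KO in couple 1 (0.0467% against 0), and Cox7b2 and Cox8c were at 0. Ndufa4l2 was near equal in couple 1 (0.191% in KO, 0.194% in WT) and lower in KO in couples 2 and 3.

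Nuclear respiratory chain genes are known targets of the transcription factor NRF1, and many carry binding letters for ETS factors (such as GABP) and YY1. Promoter windows from RefSeq (GRCm38.p6; 250 bases before to 50 after the start of the gene) matched 67 of the 84 nuclear genes. Both strands were searched for GCATGCGC (the core of the NRF1 motif), CCGGAAG (ETS), AAGATGGCG (YY1) and CCAAT, and the last letters of CCGGAAG can overlap the first of AAGATGGCG. GCATGCGC was found in 10 windows (14.9%: Atp5g2, Atp5k, Atp5l, Cox6a1, Ndufa11, Ndufa6, Ndufa8, Sdhb, Uqcr11 and Uqcrc1), against 3.05% of the 27025 genes with a window and 6.16% of the 8593 of them that were tested. AAGATGGCG was found in 8 (11.9%), against 1.64 and 3.67%. CCGGAAG was found in 16 (23.9%), against 9.93 and 20.6%, and CCAAT in 30 (44.8%), against 41.1 and 42.8%. A match describes letters in a window and is not a binding site. The stretches around GCATGCGC are shown for Cox6a1, the highest complex IV gene, and for Ndufa11, an accessory subunit of complex I with a fitted difference of 0.24, to set side by side the letters that genes of different complexes share. They are printed 5′ to 3′ on the gene's strand with GCATGCGC in capitals, lie at chr5:115349064-115349163 (minus strand) and chr17:56717662-56717761 (plus strand), and hold the motif 160 and 58 bases before the start.
Cox6a1: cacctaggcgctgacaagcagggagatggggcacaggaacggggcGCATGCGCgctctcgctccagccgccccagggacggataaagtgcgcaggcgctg
Ndufa11: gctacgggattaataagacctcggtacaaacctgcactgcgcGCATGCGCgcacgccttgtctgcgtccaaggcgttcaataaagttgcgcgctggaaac

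The 13 mt- genes did not share the upward difference of the nuclear genes. Their fitted differences ranged from -0.31 to 0.26, with a median of -0.14, and 3 of 13 (mt-Co3, mt-Nd1 and mt-Atp6) lay above 0. By limma, 0 of 13 had an adjusted p under 0.05 without or with the couple block, where 2.16% and 18.3% of all tested genes were called. At an unadjusted p under 0.05 the limma counts were 0 and 0 of 13, against 16.0% and 38.9% of all tested genes. The smallest limma adjusted p was 0.801 without and 0.136 with the block (mt-Nd4l in both). The median differences of couples 1, 2 and 3 were 0.00, 0.00 and -0.20. KO exceeded WT in all 3 couples for 1 of 13 genes (mt-Co3), against 28.1% of all tested genes. KO was lower in all 3 for 4 of 13 (mt-Nd3, mt-Nd4l, mt-Nd5 and mt-Nd6), near the 32.5% of all tested genes. With the exon length trend removed, 0 of 13 lay above 0, with a median of -0.31, and the differences were largest in the shortest genes (mt-Nd4l -0.94, mt-Atp8 -0.84, mt-Nd3 -0.78, against -0.27, -0.02 and -0.17 with the trend). They became -0.65 for mt-Nd6, -0.51 for mt-Co2, -0.31 for mt-Cytb, -0.21 for mt-Nd2 and -0.20 for mt-Nd4. The median depended on single libraries: without the WT library of couple 1 it was 0.06, with 8 of 13 above 0, and without its KO library -0.29. The difference between the nuclear and the mt- genes was not itself tested.

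mt- genes are among the most abundant rows of the table, so the rank-based values limit what they can show. mt-Co1, the catalytic core subunit of complex IV, held rank 1 in 5 of the 6 untreated libraries, and its value was therefore 14173 in all 4 libraries of couples 1 and 2. In couple 3 its value was 18690 in the WT mouse, and 9830 in the KO mouse, where it held rank 2. Both libraries of that couple had 18690 as their highest value, so this was a step from rank 1 to rank 2. The fitted difference of mt-Co1, -0.31 (SE 0.50, limma adjusted p 0.822), came wholly from couple 3. mt-Co2, the subunit that accepts electrons from cytochrome c, was at 3910, 5128 and 2964 in WT and 4310, 5612 and 1804 in KO. It was higher in KO in couples 1 and 2 and lower in couple 3. mt-Co3, the remaining core subunit, was at 7135, 2401 and 6133 in WT and 7892, 3353 and 6881 in KO. It was higher in KO in each couple, with overlapping groups (fitted difference 0.26, SE 0.59; limma adjusted p 0.881, and 0.250 with the block), and lay at -0.04 with the exon length trend removed.

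The 7 mt- genes of complex I encode its proton-pumping membrane arm. Their median difference was -0.17, with couple medians of -0.15, -0.13 and -0.11, and 1 of 7 above 0. mt-Nd4l was at 2636, 1427 and 2231 in WT and 2139, 1189 and 1873 in KO. It was lower in KO by a like amount in each couple (-0.30, -0.26 and -0.25), yet the groups overlapped because couple 2 was low in both genotypes. The fitted difference was -0.27 (SE 0.40, and 0.11 with the block), and it was -0.53 without the WT library of couple 2 and -0.02 without its KO library. mt-Nd5 was at 1737, 1123 and 1502 in WT and 1567, 1034 and 1244 in KO, and mt-Nd3 at 853, 411 and 679 in WT and 814, 326 and 627 in KO. Both were lower in KO in each couple, with fitted differences of -0.18 (SE 0.33) and -0.17 (SE 0.43). For mt-Nd3 the difference was -0.47 without the WT library of couple 2 and 0.20 without its KO library.

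mt-Nd6, the only mt- gene here encoded on the minus strand, was at 1852, 195 and 1449 in WT and 1427, 171 and 1437 in KO. It was lower in KO in each couple, by only 0.01 in couple 3, and had a fitted difference of -0.19 (SE 1.08). mt-Nd1 was at 2818, 3582 and 2404 in WT and 2818, 4661 and 2521 in KO, with a fitted difference of 0.15 that became -0.06 with the exon length trend removed. mt-Nd2 was at 1567, 853 and 1437 in WT and 1643, 779 and 1449 in KO (fitted difference -0.02), and mt-Nd4 at 3065, 2636 and 2652 in WT and 2636, 3065 and 2311 in KO (fitted difference -0.07). Neither moved the same way in all 3 couples.

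mt-Cytb, the only complex III subunit made from mitochondrial DNA, was at 4310, 4310 and 4501 in WT and 3910, 4310 and 3689 in KO, equal in couple 2 and lower in KO in the others (fitted difference -0.14, SE 0.36). mt-Atp6, the proton channel subunit of ATP synthase, was at 5612, 4661 and 5972 in WT and 5612, 5128 and 6133 in KO. It was equal in couple 1, higher in KO in couples 2 and 3, and its fitted difference of 0.06 became -0.30 with the exon length trend removed. mt-Atp8, a small ATP synthase subunit, was at 6151, 1481 and 3689 in WT and 7135, 1427 and 3145 in KO, with a fitted difference of -0.02 (SE 0.73).

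Several mt- reading frames overlap, and the rule by which reads were assigned to genes is not given in the sources used here, so reads from the shared bases cannot be told apart. The longest overlap joins the end of mt-Atp8 to the start of mt-Atp6, at chrM:7927-7969 (plus strand, GRCm38), and covers 43 bases, or 21.1% of mt-Atp8 and 6.31% of mt-Atp6. It is shown because mt-Atp8 and mt-Atp6 differed in how far couple 2 stood apart; capitals mark the start codon of mt-Atp6 and the stop codon of mt-Atp8.
mt-Atp8 and mt-Atp6 overlap: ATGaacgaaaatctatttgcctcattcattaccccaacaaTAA
mt-Nd4l and mt-Nd4 share 7 bases, and mt-Nd5 and mt-Nd6 share 14 bases on opposite strands.

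**Figure D3:**
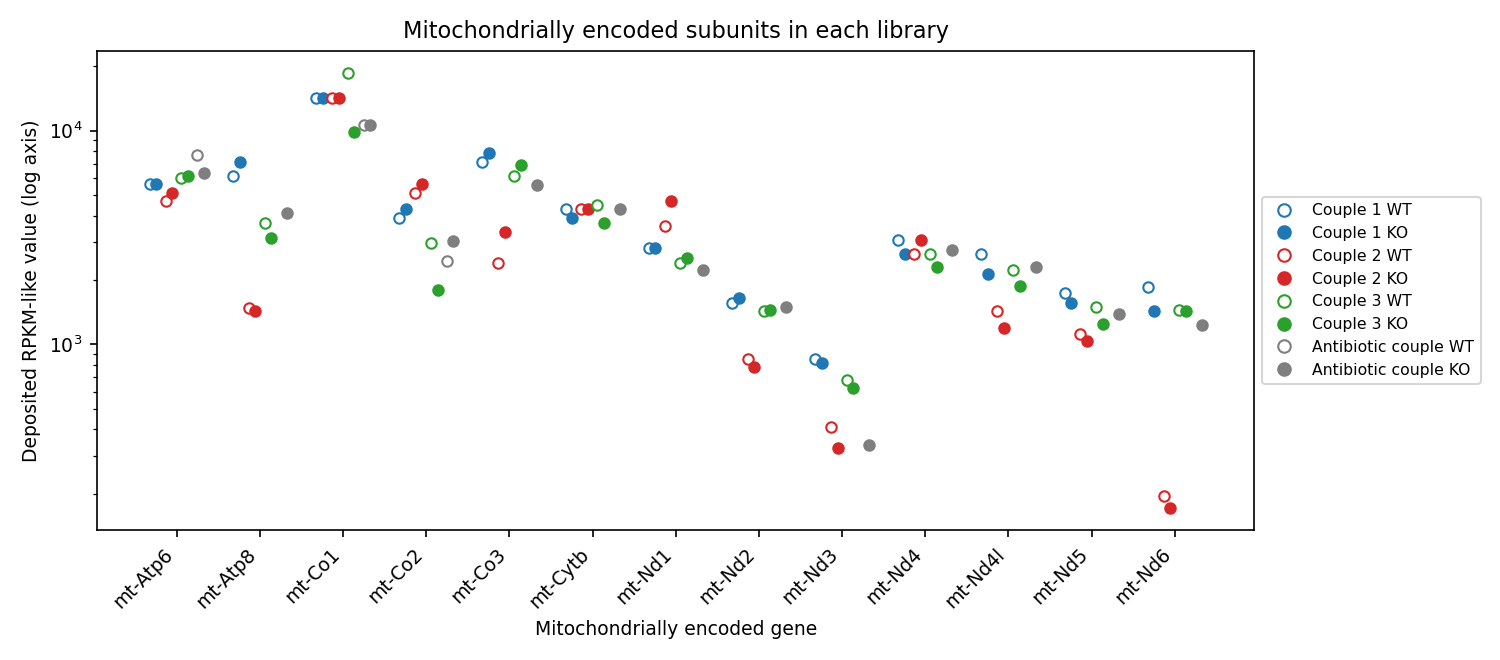
Deposited RPKM-like value (log y axis) of the 13 mt- genes (x axis) in each library; open circles are WT, filled circles KO, and colours mark the couple, with shared values of the antibiotic WT library left out. Littermates lie close together, and the couple 2 libraries lie far below the others for mt-Nd6 (195 and 171 against 1427 to 1852) and mt-Atp8.

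The untreated couples stood apart from each other in both sets of genes, couple 2, the male couple, most often. Both its libraries lay outside the range of the other 4 for 10 of the 13 mt- genes (76.9%; 8 below and 2 above) and for 39 of the 78 nuclear genes (50%; 28 below and 11 above), against 29.3% of all tested genes. Both libraries of couple 3 lay outside the other 4 for 35.9% of the nuclear genes (1 below and 27 above), against 18.7% of all tested genes, and those of couple 1 for 30.8% (23 below and 1 above), against 25.8%. For the mt- genes these shares were 23.1% in couple 3 and 38.5% in couple 1. The mean of couples 1 and 3 exceeded that of couple 2 by 8.44-fold for mt-Nd6, 3.46-fold for mt-Atp8, 3.16-fold for Atp5e, 3.14-fold for Cox5a and 2.59-fold for Atp5l. Atp5e and Atp5l encode small subunits of ATP synthase, and Cox5a a structural subunit of complex IV. Sex and litter coincide in couple 2, and the instrument of each library is unknown, so these cannot be told apart. Couple 3 also appears, from its values, to have been normalized apart from couples 1 and 2. Its libraries listed 11912 (WT) and 11931 (KO) genes above 0, against 20896 in each library of couples 1 and 2. The mt- genes made up 15.9 and 15.9% of the summed values in couple 1 (WT and KO), 12.1 and 12.9% in couple 2, and 13.7 and 10.8% in couple 3.

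In the antibiotic couple the nuclear genes of complexes II to V were lower in the KO mouse than in its WT littermate. This comparison has 1 mouse per genotype and no test. The WT column of this couple repeats single values over many genes, and 423 genes with such shared or faulty values were left out. Among them were all 37 nuclear complex I rows, each listed at 7.26, the 7 mt-Nd rows, each listed at 9.35, and mt-Atp8, mt-Co3 and mt-Cytb. Of the 42 tested nuclear genes that remained, 39 were lower in KO, with a median of -0.24 and a range of -0.80 to 0.24, against 56.6% of all genes compared and an all-gene median of -0.04. The exceptions were Cox7a2l (0.24), Cox7c (0.05) and Atp5l (0.01). By complex, 4 of 4 genes of complex II, 8 of 8 of III, 11 of 13 of IV and 16 of 17 of V were lower, with medians of -0.19, -0.22, -0.25 and -0.24. When the libraries were scaled to equal summed nuclear values, 34 of 42 were lower, with a median of -0.12, and the all-gene median was 0.06. The WT sum behind that scaling still held the repeated values, so this setting is itself affected by the fault. With each library centred on its median, 39 of 42 were lower (median -0.24). With the exon length trend removed, 39 of 42 were also lower (median -0.23).

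Single differences in this couple were small. Of the 42 genes, 3 were at least 1.5-fold lower in KO (Cox6b2, Uqcrb and Cox7a1; -0.80, -0.78 and -0.73), against 4.22% of all genes compared, and 0 were 1.5-fold higher, against 6.29%. Uqcrb, a small subunit of complex III, was at 82.5 in WT and 47.6 in KO. KO had exceeded WT in all 3 untreated couples and lay below it here for 22 of the 42 genes, against 13.7% of the genes compared. This joint count largely follows from its parts, 24 of the 42 above in all 3 untreated couples and 39 below here. Atp5j2 had values of 61.3 (WT) and 51.3 (KO), Cox7b of 101 and 86.8, and Cox6c, another small complex IV subunit, of 24.6 and 20.6, the reverse of the order in each untreated couple. Of the 3 mt- genes with usable values, mt-Co1 was equal at 10668, holding rank 2 in both libraries. mt-Atp6 was at 7654 in WT and 6359 in KO, and mt-Co2 at 2460 in WT and 3058 in KO. The summed level of the enterocyte markers was 2.77e+04 in WT and 2.79e+04 in KO in this couple. A large part of each sum was Fabp2, which held the highest value of both libraries, 11280. Near-equal sums therefore need not mean equal enterocyte content, and single markers differed. Fabp6, which carries bile acids inside ileal enterocytes, was at 4955 in WT and 458 in KO, and Apoa4, an apolipoprotein, at 2774 and 6822. Markers of T and NK cells summed to 6.64 in WT and 26.1 in KO, and those of B and plasma cells to 85.9 and 404. The part of cell makeup in these values was not tested.

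The change of the genotype difference with antibiotics did not pass a test. In a limma fit over all 8 libraries with 1 mean per group, 40 of the 42 nuclear genes had an interaction below 0, with a median of -0.44 against 0.00 for all genes. Of the 42, 0 had an adjusted p under 0.05 (smallest 0.999) and 0 an unadjusted p under 0.05, and 0 of 11520 genes (0%) were called, although 483 (4.19%) had an unadjusted p under 0.05. The antibiotic effect over both genotypes had a median of -0.22 in the nuclear genes, against -0.14 in all genes. Of the 42, 0 were called by limma (smallest adjusted p 0.116, Atp5j2), where 0.156% of all genes were. By limma 5 of the 42 (11.9%) had an unadjusted p under 0.05, against 19.4% of all genes.

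Complex I can be read in the KO libraries, which list each of its nuclear genes with a value of its own. The KO antibiotic library was set against the 3 untreated KO libraries, a comparison added after the faults were seen, in which the single treated library is assumed to vary like the untreated ones. Of the 78 nuclear genes, 76 were lower with antibiotics, with a median of -0.55, where 7376 of 11829 genes were lower, with a median of -0.13. The medians were -0.68 in complex I, -0.21 in II, -0.50 in III, -0.75 in IV and -0.35 in V, and 0.12 in the 13 mt- genes. By limma 0 of the 78 were called (smallest adjusted p 0.0972, Atp5j2), where 1.33% of all genes were. At an unadjusted p under 0.05 the limma count was 20 of 78 (25.6%), against 16.9% of all genes. Ndufs5 was at 4.86 in the KO antibiotic library, against 13.3 to 19.6 in the untreated KO libraries, and Ndufs6, an accessory subunit of the electron-input arm, at 33.1 against 57.4 to 88.8. The differences were -1.61 and -1.10, with limma adjusted p of 0.165 and 0.121. Ndufa4 was at 194 against 252 to 378.

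Other genes of mitochondrial function were read in lists, and their calls with the block stand beside 8.4% of all tested genes called higher and 9.91% called lower. Of the 77 mitochondrial ribosome genes, which translate the mt- transcripts, 77 of 77 had a fitted difference above 0 in the untreated couples, with a median of 0.30, and 68 of 77 with a median of 0.24 after removal of the exon length trend. With the couple block 9 (11.7%, near the share of all genes) were called higher and 0 lower by limma, and without it 0 were called. Mrps28 of the small subunit had values of 14.2, 16.3 and 15.4 in WT and 21.7, 25.1 and 24.8 in KO. Its groups did not overlap, and the difference was 0.61 (limma adjusted p 0.0159 with the block, and 0.0989 without). Mrpl53 and Mrpl20 of the large subunit had differences of 0.63 and 0.54 (limma adjusted p with the block 0.0380 and 0.0274). In the antibiotic couple 64 of the 77 were lower in KO, with a median of -0.11.

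Protein import genes behaved alike in the untreated couples. Of 22 tested, 21 lay above 0, with a median of 0.35 (0.29 after removal of the exon length trend). With the block 9 (40.9%, against 8.4% of all tested genes) were called higher and 0 lower by limma, and without it 0. Tomm5, of the outer membrane translocase, had values of 27.3, 26.5 and 24.8 in WT and 37.8, 48.0 and 41.5 in KO, with groups that did not overlap. Its difference was 0.67 (limma adjusted p 0.0232 with the block, and 0.0978 without). Timm23, the channel of the inner membrane translocase, and Timm10b, a small chaperone of the intermembrane space, had differences of 0.73 and 0.93 (limma adjusted p with the block 0.0199 and 0.0449).

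Of 39 tested assembly factors of the respiratory chain, 31 lay above 0, with a median of 0.20. By limma with the block 3 (7.69%) were called higher and 1 (2.56%) lower, shares at or below those of all genes. The 3 were the complex I assembly factors Ndufaf4, Ndufaf5 and Ndufaf6 (0.44, 0.47 and 0.53; adjusted p 0.0494, 0.0456 and 0.0280). The 1 called lower was Higd2a, an assembly factor of complex IV and supercomplexes (-0.40; adjusted p 0.0332). Among 9 electron carriers and subunits outside the symbol rule, Cycs, cytochrome c, was called higher with the block. Its values were 59.5, 24.5 and 55.8 in WT and 86.2, 52.0 and 89.7 in KO, higher in KO in each couple, with overlapping groups. The difference was 0.75 (limma adjusted p 0.0266 with the block, and 0.387 without). Etfdh, which feeds electrons from fatty acid oxidation to ubiquinone, was at 14.4, 13.3 and 16.6 in WT and 10.8, 10.3 and 9.97 in KO, called lower with the block (-0.47; limma adjusted p 0.0418).

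The 14 TCA cycle genes had a median of -0.06, with 5 above 0. With the block 1 was called lower by limma, Ogdh, a subunit of the 2-oxoglutarate dehydrogenase complex (-0.53; adjusted p 0.0235), at 111, 199 and 166 in WT and 82.2, 133 and 111 in KO. Of 11 coenzyme Q genes, 8 lay above 0 and 2 were called lower with the block, Coq4 and Coq10a (-0.45 and -0.37; limma adjusted p 0.0488 and 0.0459). Of 25 genes of mitochondrial DNA maintenance and transcription, 14 lay above 0, with a median of 0.04, and 1 was called higher with the block, the RNA helicase Supv3l1 (0.33; limma adjusted p 0.0464). Of 7 carriers and uncoupling genes, Vdac2, an outer membrane channel, was called higher and Ucp2, an inner membrane carrier, lower with the block (0.31 and -0.52; limma adjusted p 0.0478 and 0.0344).

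Among 13 transcriptional regulators, 6 lay above 0. Ppara, a nuclear receptor that drives fatty acid oxidation genes, was the only gene of these lists called without the block. Its values were 15.0, 24.5 and 19.9 in WT and 4.89, 7.04 and 3.48 in KO, with no overlap, a difference of -1.78 (SE 0.26) and a limma adjusted p of 0.0191, and 0.0116 with the block. In the antibiotic couple Ppara was at 30.1 in WT and 24.9 in KO. With the block, Hif1a, the oxygen-regulated factor, and Myc, a growth regulator, were called higher (0.90 and 0.53; limma adjusted p 0.00900 and 0.0231), and Nrip1, a corepressor of oxidative metabolism genes, lower (-0.55; adjusted p 0.0184).

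**Figure D4:**
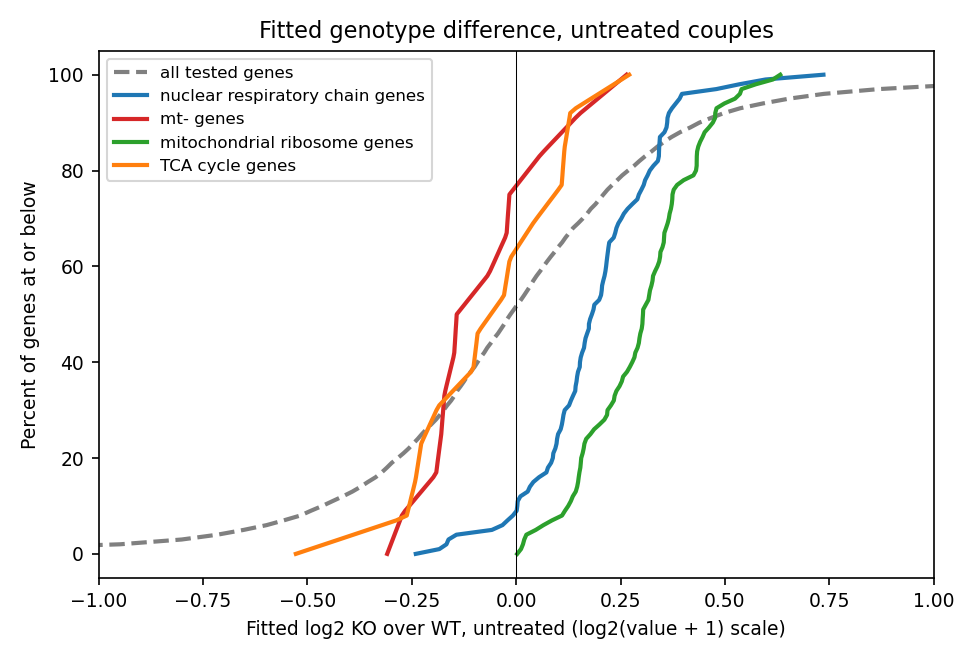
Percent of genes (y axis) at or below a fitted log2 KO over WT difference (x axis, log2(value + 1) scale, untreated couples) for nuclear respiratory chain genes, mt- genes, mitochondrial ribosome genes, TCA cycle genes and all tested genes (dashed; values beyond the axis are not drawn). The nuclear curve crosses the middle at 0.18 and the mitochondrial ribosome curve at 0.30, against -0.14 for mt- genes, -0.06 for TCA cycle genes and -0.01 for all genes.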

How the data were processed

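The deposited table gives 1 value per gene symbol and library. Its unit is not named. It was taken as RPKM because the authors' values fall with exon length and have no fixed total over the table. The libraries of couples 1 and 2 have equal sums (351707), and the sums differ elsewhere. The authors sequenced on a HiSeq 2000 and an Ion Proton and mapped reads in CLC Genomics Workbench 7.5 to GRCm38, release 76, per the series' design text. Not given in the sources used here are the instrument of each library, the counting rule, strand use and the normalization. The highest value was 14173 in each library of couples 1 and 2, 18690 in those of couple 3 and 11280 in those of the antibiotic couple. These sets were therefore taken as separately normalized, which the sources used here do not state.

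Values were analysed as log2(value + 1). Genes that reached a value of 1 in 3 or more libraries were fitted across the whole table with limma 3.58.1 in R 4.3.3 (trended prior variance), with p-values adjusted by Benjamini-Hochberg over all genes tested and a threshold of 0.05. The procedure was tested on simulated data. The untreated fit compared 3 WT with 3 KO libraries without a block. The labels mark same-numbered mice as littermates, and the deviations of littermates from their group means correlated at 0.622, 0.637 and 0.508 across genes. A fit blocked on the couple is therefore printed beside it. The block also absorbs sex and any normalization set. Libraries come from separate mice, so the error is the spread between mice. Genes of the WT antibiotic library with a value shared with another gene (376), listed at 0 with at least 1 in the KO littermate (45) or far below (2) were left out of comparisons that use it; each other library had 18 to 26 genes with shared values, which were kept. Positions are from GENCODE M21 (GRCm38), and promoters from RefSeq.

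The members and gene lists were chosen with earlier results of these data known. Values in every library were given for all mt- genes, nuclear genes called with or without the block, the highest gene and the largest positive and negative difference of each nuclear complex, and the isoform pairs. Of the other lists, the genes called in either fit were named, at most the 3 largest per direction. Uqcrb, Ndufs6, Ndufb3, Ndufa11, Cox6c, Cox7a2l, Cox5a, Atp5e, Atp5l and the subunits given only by their difference were named after their values were seen. So were the markers Ckm, Fabp6, Fabp2, Apoa4, Slc10a2, Cdh1 and Epcam. Alternatives were another pseudocount, no filter, other scalings, removal of the exon length trend, the block, limma without the trend, and leaving out libraries and couples.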

Additional observations from a re-analysis of the deposited data

Results flagged for a closer look

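The median log2 KO over WT of the nuclear genes lay above 0 in each of the 3 untreated couples and below 0 in the antibiotic couple in 4 complexes. It was -0.19 in complex II, -0.22 in complex III, -0.25 in complex IV and -0.24 in complex V in that couple. Some of the untreated medians lay near 0. The complex II median was 0.01 in couple 1 and 0.03 in couple 3, with 2 of 4 genes above 0 in each. The complex V median was 0.03 in couple 1. The difference between the couples was not tested at the level of a complex, and in the interaction fit by limma no single gene was called.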

How the results depend on the processing

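Of the 238 alternative values of the report's summary results, 222 stayed within the spread between couples, or within 1.5 times a count, and 16 moved. The sign of a median was not part of this check. The mt- median (-0.14) was -0.31 with the exon length trend removed, and ranged from -0.29 to 0.06 over leaving out single libraries or couples, with 0.00 without couple 3, with or without the block. With the replicate block the count of nuclear genes called higher went from 0 to 1 (Ndufs5), and without couple 1 under the block it was 1, but the gene was Ndufb6; it was 0 in the other alternatives for the untreated couples. The block changed no other call of a respiratory chain gene. Over all genes, 253 were called without and 2145 with the block, 11 with no filter on low values, and 0 on leaving out any couple without the block (464, 421 and 523 with it).

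In the antibiotic couple the mt- median of 3 genes (0.00) was 0.12 with equal summed nuclear values. The WT sum of that scaling still held the repeated values. The count of nuclear genes at least 1.5-fold lower (3) was 8 with the exon length trend removed. With the shared values of the WT library kept, it was 5, the count at least 1.5-fold higher went from 0 to 33, the mt- median was 5.03, and the interaction fit called 6 nuclear and 5 mt- genes higher; this alternative puts the repeated values back. Of the 589 alternative values of single genes, 41 changed sign, none of them called before or after. With the exon length trend removed these were mt-Atp6 (-0.30), mt-Co3 (-0.04), mt-Nd1 (-0.06), Uqcr10 (-0.06), Cox6a1 (-0.23), Cox6b1 (-0.13) and Cox8a (-0.30). The others came from leaving out a library or couple, where the range was -0.03 to 0.42 for Cox4i1, -0.08 to 0.35 for Cox6a1, -0.50 to 0.12 for Cox6b2, -0.11 to 0.56 for Sdhd and -0.04 to 0.34 for Uqcrc1. Among the mt- genes it was -0.05 to 0.13 for mt-Atp6, -0.61 to 0.55 for mt-Atp8, -0.48 to 0.33 for mt-Co2, -0.22 to 0.64 for mt-Co3, -0.12 to 0.32 for mt-Nd1, -0.29 to 0.31 for mt-Nd2, -0.47 to 0.20 for mt-Nd3, -0.21 to 0.03 for mt-Nd4 and -1.21 to 0.83 for mt-Nd6. With the block and a couple left out, mt-Nd4 was at 0.01 without couple 1, mt-Nd2 at 0.04 without couple 2, and mt-Atp8 at 0.08 and mt-Co2 at 0.14 without couple 3. No paired analysis was possible for the antibiotic effect, because the treatment coincides with 1 couple, and the mt- share without ribosomal RNA rows was not run because those rows are listed at 0. Depth is unknown, so no counting error could be given, and 3 couples leave the median standard error of a nuclear gene at 0.25 without the block.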
